A study of Mus musculus with 6 samples.

Results

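Itch and 8 further genes of HECT-domain ubiquitin ligases were followed on 2-colour microarrays of MN9D cells, a mouse dopaminergic cell line made by fusing embryonic midbrain cells with neuroblastoma cells. The members were selected by gene symbol, and every probe carrying one of the 9 symbols was kept, which gave 15 of 31769 probes and 9 of 17865 named genes. Huwe1 had 5 probes, Nedd4 and Smurf2 had 2 each, and Itch, Nedd4l, Wwp1, Wwp2, Smurf1 and Ube3a had 1 each. Itch was chosen from its ratio on these same arrays, so the ratios of the family are given as a description, and the counts of calls in this contrast support nothing. The relatives were taken for their shared catalytic domain. Itch, Nedd4, Nedd4l, Wwp1, Wwp2, Smurf1 and Smurf2 are NEDD4-type ligases, while Huwe1 and Ube3a belong to other branches of the HECT family.

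One RNA came from cells transfected with pcDNA3.1(-)-Lmx1a, a plasmid carrying the coding sequence of the LIM homeodomain transcription factor Lmx1a, and the other from cells given empty pcDNA3.1(-), both with pBluescript SKII(+) as carrier DNA. Plasmids were delivered with a lipid reagent, and the share of cells that took up plasmid is not given in the sources used here. There were 3 Lmx1a pools of 3 dishes each, and all were hybridised against 1 control pool of 9 dishes. Each pool was run once with Lmx1a RNA in Cy5 and once with the dyes swapped, giving 6 arrays. Since a pool's swapped arrays hold the same pair of RNA extracts, the pool is the replicate and n = 3 throughout. All ratios share the control pool, so the spread between control cultures is not in any error given here, and nothing says that the pools came from separate transfections.

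HECT ligases take ubiquitin from an E2 enzyme onto a cysteine of their own catalytic domain before passing it to a substrate. NEDD4-type ligases add a C2 domain, which binds membranes, and WW domains, which bind proline-rich motifs in substrates and adaptors. In neurons the family sorts receptors, channels and transporters for degradation.

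A probe was taken as detected where the spot mean exceeded the local background by more than 2 of that background's standard deviations, and 44.9% of probes met this on all 6 arrays in one channel or the other. Per array, the median net brightness of a probe was 12.9 to 42.4 scanner units for Cy5 and 9.02 to 20.7 for Cy3. The dimmest array was that of pool 1 with Lmx1a in Cy3, where the Lmx1a channel detected 49.2% of probes, while the same channel of the other 5 detected between 60.1% and 67.7%. The transfected gene had a log2 ratio of 2.49 ± 0.68 (SD, n = 3) and was positive on 6 of 6 arrays. Of 12 markers of dopaminergic cells, 5 (Th, Ddc, Slc18a2, Nr4a2 and Foxa1) were detected on every array, and Slc6a3, Pitx3, Foxa2 and Aldh1a1 were not detected on any. Of 22 measured markers of other cell types, 8 were detected on every array (Sox10, S100b, Mog, Aif1, Cd68, Pecam1, Tph2 and Slc32a1). Gfap, Gad1, Col3a1 and Slc6a4 were detected on none. Of further markers of the cell types of Gfap and Gad1, Aqp4 and Slc1a3 were detected on 5 arrays and Gad2 on 4.

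Itch, a ligase of JunB and c-FLIP named after the itchy mouse, gave the highest mean ratio of the family over both dye orientations. Its single probe (reporter MMAA300005715) was well above background in both channels of all 6 arrays. With Lmx1a RNA in Cy5 the log2 ratios of Lmx1a over control were 0.0093, 0.12 and 0.0052 in pools 1, 2 and 3. With Lmx1a RNA in Cy3 they were 0.45, 0.31 and 0.31. All 6 values were positive, and the highest array in the first orientation lay below the lowest in the second. Averaged over the swap, the pools gave 0.23, 0.22 and 0.16, a mean of 0.20 ± 0.038 (SD, n = 3) or 1.15-fold. In RNA from whole dishes, a difference in a few cells and a smaller one in all cells cannot be told apart. Of all named genes, each read from its brightest probe, 26 had a ratio at least that high, Itch included. On the arrays with Lmx1a in Cy5 alone, Itch at 0.045 ± 0.066 lay below Nedd4l at 0.17, Nedd4 at 0.14 and Ube3a at 0.10.

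**Figure D1:**
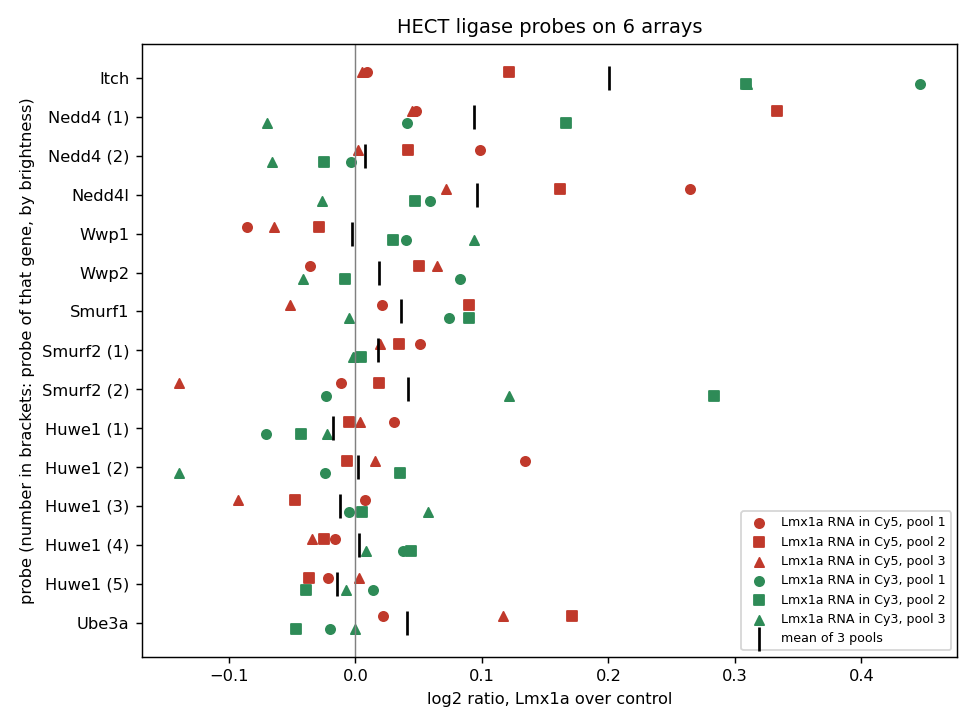
Log2 ratio of Lmx1a over control (x axis) for each of the 15 probes (y axis), with 1 point per array. Colours give the dye of the Lmx1a RNA, shapes the pool, and black ticks the mean of 3 pools. Itch is the only probe with all 6 points above 0, and its points in the 2 dye orientations do not overlap.

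Before normalization, Cy5 was the brighter channel of the Itch spot on 5 of 6 arrays. With Lmx1a RNA in Cy5, the net brightness of the Itch spot was 158, 208 and 183 units for Lmx1a RNA against 78.9, 85.5 and 86.0 for control RNA in pools 1, 2 and 3. After the swap it was 41.3, 114 and 116 units for Lmx1a RNA in Cy3 against 40.2, 175 and 164 for control RNA in Cy5. These values are not normalized and carry both the dye and the RNA. The dimmest array gave the lowest brightness of the Itch spot in either dye and the highest Itch ratio. Without that array the Itch log2 ratio was 0.18.

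**Figure D2:**
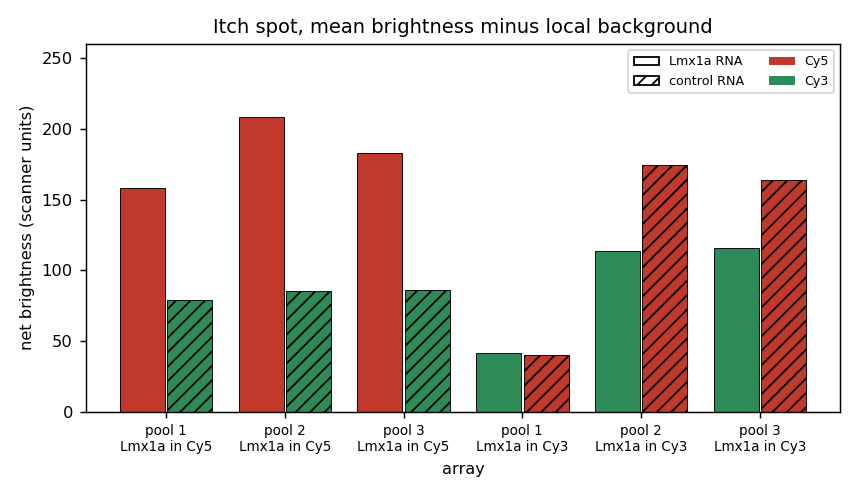
Net brightness of the Itch spot (y axis, scanner units, spot mean minus local background median) on each of the 6 arrays (x axis). Plain bars are Lmx1a RNA, hatched bars control RNA, and colours give the dye. Cy5 bars are taller on 5 arrays, and on the array of pool 1 with Lmx1a in Cy3 the bars stand at 41.3 and 40.2.

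The difference between dye orientations was not itself used to choose Itch and was tested. It comes from the same array ratios whose mean chose Itch. The dye effect, the ratio with Lmx1a in Cy5 minus that with Lmx1a in Cy3, divided by 2, reads as log2 Cy5 over Cy3. For Itch it was -0.22, -0.094 and -0.15 in pools 1, 2 and 3, a mean of -0.15 ± 0.063 (SD, n = 3), negative in 3 of 3 pools, with a limma adjusted p of 0.0210 over all probes. In each pool the ratio was lower with Lmx1a in Cy5 than in Cy3. The dye effect is independent of the mean that chose Itch only if both orientations are equally noisy. The dimmest array, of pool 1 with Lmx1a in Cy3, gave the highest Itch ratio, so this independence is not shown. Without that array the Itch dye effect was -0.13. Itch was 1 of 15 member probes called, against 6.8% of all probes. The call was lost without replicate 3 (adjusted p 0.0839), with plain background subtraction (0.277) and with spot medians in place of means (0.201). Over all probes these settings called 503, 1 and 61 in that order, against 2160 in the reported fit. Centring each array on its median, without loess, gave Itch a positive dye effect, at 0.23 (adjusted p 0.000178).

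Among the relatives the dye effect did not pass the threshold for any probe in limma's fit, with adjusted p from 0.0699 for Nedd4l to 0.909 for the dimmest Huwe1 probe. Nedd4l and Ube3a had positive values, 0.070 ± 0.029 and 0.063 ± 0.044 (SD, n = 3), so their ratios were higher with Lmx1a in Cy5, opposite to Itch. Wwp1, at -0.057 ± 0.025, had the sign of Itch. The ranges of the 2 orientations did not overlap for 8 of the 15 probes, where 32% of all probes showed such a gap. These were the probes of Itch, Nedd4l, Wwp1 and Ube3a, the dimmer Nedd4 probe, the brighter Smurf2 probe, the brightest Huwe1 probe and Huwe1 probe 4 by brightness. Huwe1 probe 4 was detected on 0 arrays, so its gap is not read as one of the transcript. With median centring the sign of the dye effect turned for Itch, Wwp1, Wwp2, the second Nedd4 probe and the second Smurf2 probe.

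**Figure D3:**
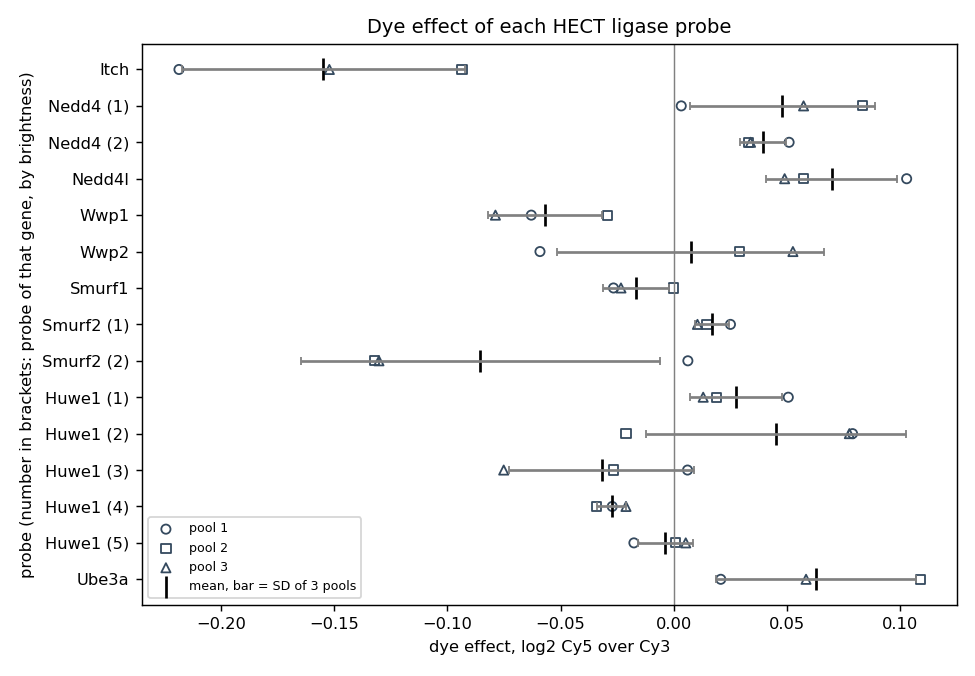
Dye effect (x axis, log2 Cy5 over Cy3) of each of the 15 probes (y axis). Open symbols are pools, ticks the mean and bars the SD of 3 pools. Itch, with a mean of -0.15, lies farthest from 0, and its 3 pools are all negative.

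Nedd4 and Nedd4l followed Itch in the order of mean ratios. Nedd4, a ligase of the IGF-1 receptor, gave 0.048, 0.33 and 0.045 with Lmx1a in Cy5 and 0.041, 0.17 and -0.070 in Cy3 at its brighter probe. Pool 2 was the highest in both orientations. The mean was 0.094 ± 0.14 (SD, n = 3), smaller than its own spread, and 0.016 without replicate 2. The dimmer Nedd4 probe, detected on 5 of 6 arrays, gave a mean of 0.0077 ± 0.040 and was positive on 3 of 6 arrays.

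Nedd4l, which removes epithelial sodium channels and the dopamine transporter from the cell surface, gave 0.26, 0.16 and 0.071 with Lmx1a in Cy5 and 0.059, 0.047 and -0.027 in Cy3. It was positive on 5 of 6 arrays, and its orientations did not overlap, with Cy5 above Cy3. The pool means were 0.16, 0.10 and 0.022, for a mean of 0.096 ± 0.070 (SD, n = 3) or 1.07-fold. Without replicate 1 the mean was 0.063. The pool values of Nedd4l (0.022 to 0.16) and of Nedd4 (-0.013 to 0.25) overlapped each other and reached into those of Itch (0.16 to 0.23). Within pools, Itch was above Nedd4l in 3 of 3 and above Nedd4 in 2 of 3, with Nedd4 higher in pool 2.

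Wwp1 and Wwp2, the closest relatives of Itch in sequence, stayed near 0. Wwp1 gave -0.086, -0.029 and -0.064 with Lmx1a in Cy5 and 0.040, 0.030 and 0.093 in Cy3. All 3 values were negative in one orientation and all positive in the other, and they cancelled to a mean of -0.0026 ± 0.019 (SD, n = 3). Wwp2 gave -0.036, 0.050 and 0.064 in Cy5 and 0.082, -0.0081 and -0.041 in Cy3, a mean of 0.018 ± 0.0063 (SD, n = 3). Its orientations overlapped, and its pools lay within 0.011 to 0.023 although single arrays spread more widely. Wwp1 was detected on 5 of 6 arrays, also at 3 background standard deviations. Wwp2 was detected on 6 in one channel or the other, but on 5 in each channel and on 4 at 3 standard deviations. With median centring Wwp1 was at 0.037 and Wwp2 at -0.016, and with plain background subtraction they were at 0.026 and 0.092. Without the dimmest array Wwp2 was at -0.0016.

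Smurf1 and Smurf2 mark Smads and receptors of TGF-beta and BMP signalling for degradation. The Smurf1 probe was detected on 4 of 6 arrays and gave 0.048, 0.090 and -0.028 in pools 1, 2 and 3, a mean of 0.036 ± 0.060 (SD, n = 3). On the swapped arrays of pools 1 and 2 its net brightness was 8.42 and 8.27 units for Lmx1a RNA and 8.22 and 7.49 for control RNA. On the other arrays it was above 20 in either dye. Those 2 swapped arrays gave ratios of 0.074 and 0.090. Without replicate 2 the Smurf1 ratio was at 0.0096, with median centring at 0.11 and with plain background subtraction at 0.24. The brighter Smurf2 probe gave 0.051, 0.034 and 0.019 with Lmx1a in Cy5 and 0.00061, 0.0047 and -0.0019 in Cy3, with a mean of 0.018 ± 0.0087. The second Smurf2 probe gave -0.011, 0.019 and -0.14 in Cy5 and -0.024, 0.28 and 0.12 in Cy3, with a mean of 0.042 ± 0.095. The 2 Smurf2 probes lay farthest apart on the swapped array of pool 2, where the second was high, and next on the unswapped array of pool 3, where it was low. Without replicate 2 the second probe was at -0.013.

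Huwe1, a very large ligase of Mcl1 and N-Myc, gave 0.031, -0.0051 and 0.0032 with Lmx1a in Cy5 and -0.071, -0.043 and -0.023 in Cy3 at its brightest probe. The mean was -0.018 ± 0.0074 (SD, n = 3), and -0.033 with plain background subtraction. The second probe, detected on 5 arrays, was at 0.0023 ± 0.059. The 3 other Huwe1 probes were not well above background in either channel of any array, so their ratios, between -0.015 and 0.0024, are not read as ratios of the transcript.

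Ube3a, imprinted in neurons and lost in Angelman syndrome, was detected on every array and gave 0.022, 0.17 and 0.12 with Lmx1a in Cy5. In Cy3 it gave -0.020, -0.047 and -9.4e-05. Ube3a was positive on all arrays of one orientation and negative on all of the other. The pool 3 value in Cy3 was close to 0, however, and was 0.019 in the authors' deposited table. The pools gave 0.00085, 0.062 and 0.058, with a mean of 0.040 ± 0.034 (SD, n = 3).

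Read from the brightest probe, 7 of the 9 genes had a positive mean ratio, with a median of 0.036, against 51.5% of all named genes and a median of 0.00093. The count was 6 with median centring, and 9 in the authors' deposited table, where Wwp1 was at 0.0056 and Huwe1 at 0.00023. Leaving Itch out, the median of the other 8 was 0.027. In limma's fit of the 3 pools 0 of 15 member probes passed an adjusted p of 0.05, as did 0% of all probes. At an unadjusted p under 0.05 there were 2 of 15, Itch and Nedd4l, both positive, beside 11.8% of all probes. In the fit of single arrays with a replicate block 1 of 15 was called, Itch, beside 1.05%. Itch was also the only one of the 15 with 1 sign on all arrays, which 5.28% of all probes had. Since this contrast chose Itch, nothing is read from these counts.

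**Figure D4:**
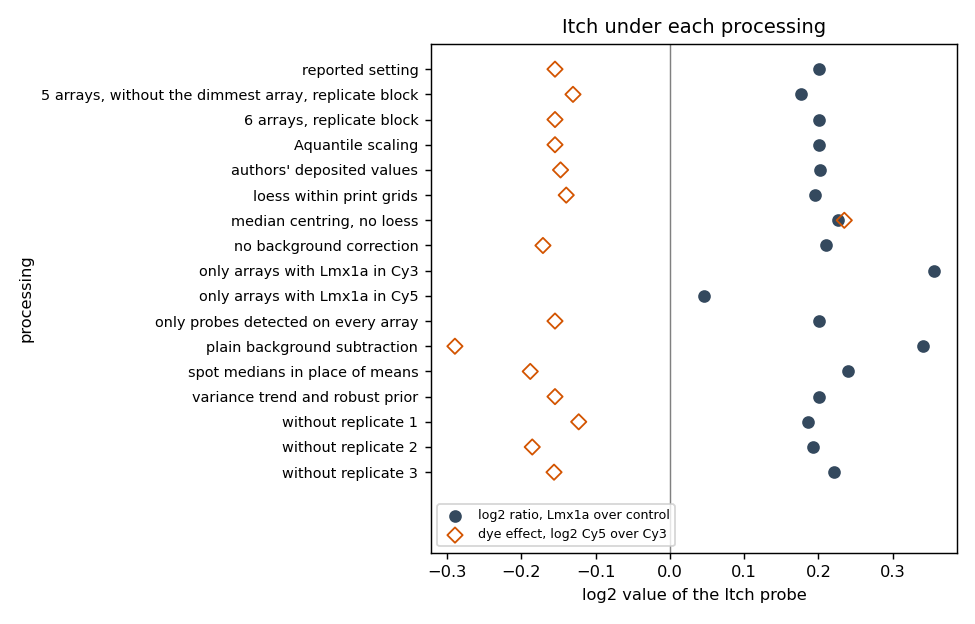
The Itch probe under each processing (y axis), with the log2 ratio of Lmx1a over control as filled circles and the dye effect, log2 Cy5 over Cy3, as open diamonds (x axis, log2). The ratio is above 0 under each processing shown, from 0.045 to 0.35, and the dye effect is negative except with median centring.

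By Euclidean distance over the 6 log2 ratios, the genes most like Itch among 9349 detected on every array were Hnrnpk at 0.13, Slc22a29 at 0.22 and Hnrnpll at 0.22, where the median distance was 0.66. Hnrnpk and Hnrnpll encode RNA-binding proteins. Hnrnpk gave 0.054, 0.099 and -0.043 with Lmx1a in Cy5 and 0.41, 0.37 and 0.22 in Cy3, with a mean of 0.19 ± 0.085. Their closeness to Itch on each array follows from how they were picked.

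The other genes of the pathway were read from their brightest probes. In limma's fit 0 in any list passed an adjusted p of 0.05, as did 0% of all probes. The transfected Lmx1a did not pass either (limma adjusted p 0.0779), so these counts are no result about the pathway genes. Of all named genes, an unadjusted p under 0.05 was reached by 6.92% with a positive and 4.93% with a negative ratio. The remaining NEDD4-type ligases, Hecw1 and Hecw2, were at 0.025 ± 0.012 and -0.030 ± 0.020 (SD, n = 3). A second Hecw2 probe gave -0.0033.

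Of 14 other HECT ligases measured, 11 had positive ratios, with a median of 0.032. At an unadjusted p under 0.05, 5 were higher and 0 lower. G2e3, a ligase of the cell cycle and DNA damage response, had the largest ratio, 0.14 ± 0.083 (SD, n = 3), with 0.068, 0.23 and 0.13 in pools 1, 2 and 3, and a second probe gave 0.086. Trip12 was at 0.11 ± 0.097, with 0.22 in Cy5 and 0.012 in Cy3. The 3 others, named after their values were seen, were Ube3c at 0.099, Hace1 at 0.077 and Herc4 at 0.052. Hace1 was negative on all arrays with Lmx1a in Cy5, from -0.021 to -0.21, and positive on all in Cy3, from 0.093 to 0.40. Pool 2 gave the list its highest median, 0.050, against 0.019 and 0.014 in pools 1 and 3. The list median was 0.014 without replicate 2, and 0.010 with the mean of all probes of a gene.

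Of 9 E1 and E2 enzymes measured, which activate and carry ubiquitin, 6 had positive ratios, with a median of 0.019. The E1 gene Uba1 was listed but had no probe under its name. At an unadjusted p under 0.05, 3 were higher and 0 lower. Uba6, an alternative E1, was at 0.15 ± 0.12 (SD, n = 3) with 0.015 in Cy5 and 0.29 in Cy3. Ube2n, an E2 that builds lysine-63 chains, was at 0.13 ± 0.060 with 0.013 in Cy5 and 0.26 in Cy3. Both had their higher ratios with Lmx1a in Cy3, as Itch did. Ube2l3, an E2 that works with HECT ligases, named after its value was seen, was at -0.029 ± 0.073. The medians were -0.020, 0.062 and 0.039 in pools 1, 2 and 3, and the list median was 0.059 without replicate 1 and 0.0033 without replicate 2.

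Of 26 adaptors and regulators measured, 13 had positive and 13 negative ratios, with a median of 0.00046. At an unadjusted p under 0.05, 3 were higher and 2 lower. The lower were Tnfaip3 at -0.076 ± 0.068 and Smad7 at -0.059 ± 0.052. The higher were Usp9x at 0.10 ± 0.081 and, given next, Ywhae and Mapk8. Tnfaip3, Smad7 and Usp9x were named after their values were seen. Ldlrad4, a membrane protein that binds NEDD4-type ligases, was at 0.32 ± 0.54 (SD, n = 3), a value that rests on 1 array at 1.85 while the other 5 lay between -0.013 and 0.061. Ywhae, a 14-3-3 protein, was at 0.11 ± 0.042 and positive on 6 of 6 arrays. Mapk8, encoding the JNK1 kinase that activates Itch by phosphorylation, was named after its value was seen and was at 0.13 ± 0.031, positive on 6 of 6 arrays and detected on 5. Its limma adjusted p was 0.102 in the fit of pools and 0.0338 with the replicate block, which called 1.05% of all probes. Since the value of Mapk8 was seen first, nothing is read from this call. Mapk9 and Map2k7, which encode JNK2 and a kinase that activates JNK, were in the same list at -0.029 ± 0.061 and 0.0016 ± 0.019. Ndfip1, an adaptor that activates Itch, also named after its value was seen, was at -0.00072 ± 0.084, with single arrays from -0.15 to 0.14.

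Of 25 genes whose proteins are described as Itch substrates, 12 had positive and 13 negative ratios, with a median of -0.011, or 0.0063 without replicate 2. Only Sh3gl3, an endophilin, was higher at an unadjusted p under 0.05, at 0.051 ± 0.028 (SD, n = 3), and 0 were lower. Bid, a BH3-only apoptosis protein, was at -0.068 ± 0.071. Junb and Txnip were not well above background in either channel of any array. Of 28 genes for substrates of the other members, 20 had positive ratios, with a median of 0.011. Mcl1, an apoptosis inhibitor and Huwe1 substrate, was at 0.10 ± 0.068, with 0.097 at a second probe. Tgfbr1, a receptor that SMURF proteins mark for degradation, was at 0.089 ± 0.045 and positive on 6 of 6 arrays at its brightest probe. Its other probes gave -0.0064 and 0.093. The dopamine transporter gene Slc6a3, a Nedd4l substrate, was among the undetected markers given above. Transcript ratios say nothing of the amounts of these proteins, which ubiquitin ligases act on.

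**Figure D5:**
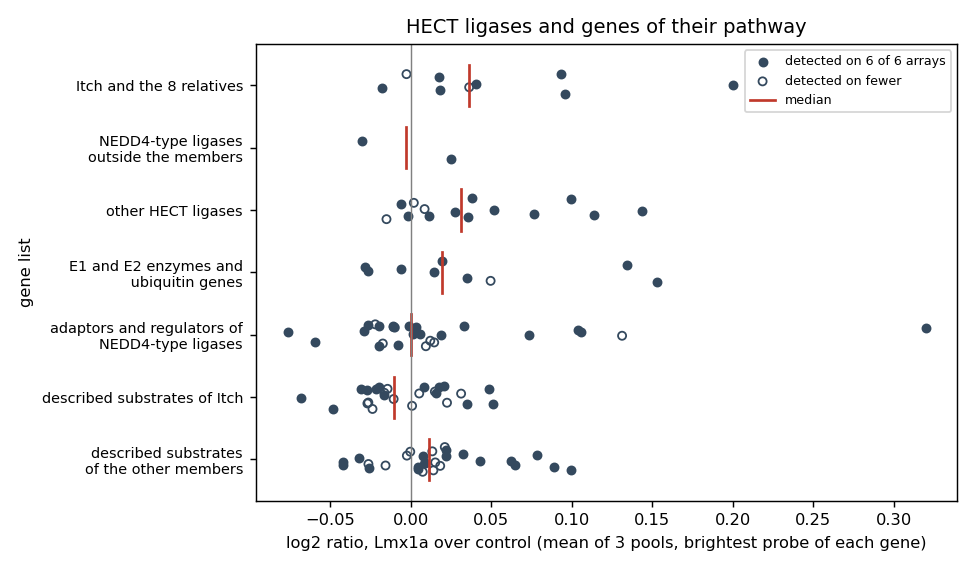
Mean log2 ratio of Lmx1a over control (x axis, 3 pools, brightest probe of each gene) for the 9 HECT ligases and the genes of each pathway list (y axis). Filled points were detected on all 6 arrays, open points on fewer, and red lines are medians. Most genes lie between -0.1 and 0.15, with Itch at 0.20 and Ldlrad4 at 0.32 beyond them.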

How the data were processed

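Per the labels, channel 1 was Cy5 and channel 2 Cy3. The deposited scanner tables hold linear intensity per spot, with local background, per the file headers. The authors also deposited log2 ratios, which, set against the scanner values, read as Lmx1a over control on every array (correlation 0.996 to 0.999 with loess within print grids). Their scale, centring and direction are stated nowhere and were read from the values. Column medians over all spots ranged from -0.0042 to 0.0050. This table served as an alternative.

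Each array held 34992 spots, of which 3223 control spots had weight 0 in loess and were then left out. Probe names came from GEO's platform annotation, updated through RefSeq's gene table (GRCm38.p6). Of the probes, 26000 had 1 name, 0 several and 5769 none.

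Background was corrected by normexp (offset 50) and ratios by loess (span 0.3). The arrays of each pool were averaged (ratio) or differenced (dye effect) and fitted with limma 3.58.1 in R 4.3.3 against 0, with Benjamini-Hochberg adjustment over 31769 probes and a threshold of 0.05. The fit of pool ratios was tested on simulated pools with independent errors and no dye effect. The dye effect and the fit of single arrays were not tested in this way. Arrays with the same number share a pool, per the labels, and their deviations correlated at 0.038, 0.19 and 0.069 across probes. The fit of single arrays had a dye term and the pool as a random block (consensus correlation -0.068).

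The members and gene lists were chosen with earlier results of these data known. All 9 members are named. From each pathway list the 2 genes with the largest ratio in absolute size, among those detected on every array, are named. The 3 genes closest to Itch were taken by distance. Lmx1a checks the label.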

Additional observations from a re-analysis of the deposited data

Results flagged for a closer look

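The Itch probe differed between the 2 dye orientations. Its dye effect, log2 Cy5 over Cy3, was -0.155, with a limma adjusted p of 0.0210 over all probes and the same sign in 3 of 3 pools. This p comes from the same array ratios whose mean chose Itch, and its independence of that choice is not shown. A dye effect was called for 6.8% of all probes and for 1 of 15 member probes, a share near that background. The ratio of Lmx1a over control was 0.045 ± 0.066 with Lmx1a in Cy5 and 0.35 ± 0.079 with Lmx1a in Cy3 (SD, n = 3 arrays each). The cause of the difference was not tested.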

How the results depend on the processing

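The Itch ratio was positive under every alternative run. It was 0.045 on the arrays with Lmx1a in Cy5 and 0.35 on those in Cy3, 0.34 with plain background subtraction, 0.24 with spot medians (chosen after the data were seen) and 0.19 to 0.22 with 1 replicate left out. The number of member probes called for the ratio was 1, Itch, in the replicate block fits of 6 and of 5 arrays, with median centring and on the Cy3 arrays, and 0 under the others. This contrast chose Itch, so these counts are no sign of stability. Over all probes these fits called 333, 91, 49 and 215, and the Cy5 arrays alone 993, of which 0 were members.

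The Itch dye effect was -0.15 in the replicate block fit (adjusted p 0.0109), -0.29 with plain subtraction, -0.19 with spot medians, 0.23 with median centring, and -0.19 to -0.12 with 1 replicate left out (-0.16 without replicate 3). Member probes called for the dye effect numbered 5 without background correction, 10 with median centring, 2 with loess within print grids, 2 without the dimmest array, 0 with plain subtraction or spot medians, and 0 to 2 with 1 replicate left out. Over all probes, 2160 were called, against 24782 with median centring, 4261 without background correction, 61 with spot medians and 1 with plain subtraction. Loess within print grids called 1634 and the fit without the dimmest array 2356. Without replicate 1, 2 or 3 the counts over all probes were 1514, 722 and 503. The dye effect changed sign, with no call in the reported fit, for Nedd4 probe 2 (-0.048), Smurf2 probe 2 (0.19), Wwp1 (0.11) and Wwp2 (-0.041) with median centring, for Wwp2 with plain subtraction (-0.023) and without replicate 2 or 3 (-0.015 to 0.041 with 1 replicate left out), and for the dimmest Huwe1 probe with print grids (0.018), without the dimmest array (0.0025) and without replicate 1 (-0.0083 to 0.0031 with 1 replicate left out).

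With 1 replicate left out, list medians ranged from 0.0033 to 0.059 for E1 and E2 enzymes, 0.014 to 0.047 for other HECT ligases and -0.015 to 0.0063 for Itch substrates. Medians also moved with the mean of all probes for other HECT ligases (0.010) and for Hecw1 and Hecw2 (0.0041). Plain background subtraction moved the ratios of Itch (0.34), Smurf1 (0.24), Wwp2 (0.092), Wwp1 (0.026), the brighter Smurf2 probe (0.032) and the brightest Huwe1 probe (-0.033). It also moved the undetected Huwe1 probes 3, 4 and 5 by brightness, to -0.076, -0.037 and -0.35. The causes were not tested. The number of arrays, and for 7 member probes a signal near background on at least 1 array, limit the precision.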
